A study of Homo sapiens with 12 samples.

Results

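The level of RNA within the cap-immunoprecipitated fraction was compared between U2OS cells that stably carried eIF4E-Flag and U2OS cells that stably carried the vector alone. U2OS is a human osteosarcoma line, and both kinds of cell were labelled as stable lines. The labels give neither the promoter of the eIF4E-Flag construct nor the number of clones. The Cap IP libraries numbered 6 of the 12 in the series, 3 from eIF4E-Flag cells and 3 from vector cells, and the other 6 were input libraries of total RNA from the same 2 kinds of cell. Levels were taken within the Cap IP fraction and were not divided by input. All rows with enough counts entered, which left 12460 of 58684 rows of the count table, and a row usually stands for 1 gene.

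The m7G cap is a methylated guanosine joined to the start of RNA polymerase II transcripts while they are being made. RNGTT adds the guanosine, RNMT methylates it, and CMTR1 and PCIF1 modify the nucleotide that follows. eIF4E binds the finished cap, brings mRNA to the ribosome together with eIF4G and eIF4A, and also takes part in the export of some mRNAs from the nucleus. An antibody against the cap enriches capped RNA, so a level in the Cap IP fraction depends both on how much of an RNA the cell holds and on how much of that RNA is capped.

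Cap IP of vector cells gave libraries of 1385397, 1442097 and 1786940 counts, and Cap IP of eIF4E cells gave 1420138, 1474341 and 1206321. At this depth a row with 3 counts stood at 1.92 to 3.15 CPM, the unit of level used below, in which each count is divided by the library size after TMM scaling. Whether replicates are separate cultures is not stated in the labels, so a p-value here speaks only to the variation among these libraries, some or all of which may be technical. Vector replicate 3 stood apart on the first principal component of log2 CPM, at -59.7, where the other 5 libraries lay between -17.4 and 42.7. This component held 30.4% of the variance, and all 3 eIF4E libraries lay above all 3 vector libraries on it. The share of counts in the 13 mitochondrial mRNAs was 1.72%, 0.367% and 2.43% in the vector libraries and 2.30%, 0.866% and 1.88% in the eIF4E libraries, so it was lowest in replicate 2 of both groups. Of 18 osteosarcoma and mesenchymal markers, VIM and SPARC were the most abundant, at 512 to 1489 CPM and 175 to 543 CPM. COL1A2, IBSP and TWIST1 were at 0 in all 6 libraries, and ALPL and SP7 had 15 and 25 counts over all 6. The epithelial marker KRT8, opposite to KRT18, had 2624 to 6033 CPM, above VIM. These levels are therefore a weak check of the labelled line. Blood cell markers summed to 3.19 to 10.9 CPM per library. The strand counted is not described, and counts may lie on the row opposite to the gene that made the RNA, which was not tested. In each pair given next, the row named first held most of the counts. VIM-AS1, a row on the strand opposite to VIM, held a mean of 23718 counts per Cap IP library against 1025 for VIM. SNX22 held 23502 against 378.5 for PPIB on the opposite strand. BEST1 held 31971 against 447 for FTH1, and MT-ND6 held 5378 against 154 for MT-CO1. Tested rows not matched to the annotation held 45.5% of the Cap IP counts, and their opposite strand could not be checked. Tested rows with no exons opposite to another gene held 13.9%. Rows with exons opposite to another gene held 39.2%, and for them the RNA behind a row is uncertain. With the strand unknown, it is not certain for the other rows either. The opposite gene is therefore named where a row with opposite exons is described.

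EIF4E itself, the gene carried by the construct, had few counts. The limit on strand given above holds for its row too, so the row is a weak check of the labels. EIF4E lies on chromosome 4 at 98879276 to 98929133 of GRCh38 and has exons opposite to an unnamed gene. The vector Cap IP libraries had 14.6, 12.6 and 19.2 CPM of EIF4E and the eIF4E Cap IP libraries had 29.8, 25.1 and 26.8 CPM. The groups did not overlap, and 3 of 3 eIF4E libraries were higher, which held for 6.16% of all tested rows. The log2 difference was 0.79 ± 0.35 (SE) and did not pass when adjusted over all rows by the Benjamini-Hochberg method (edgeR quasi-likelihood test, adjusted p = 0.492).

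Few rows passed between eIF4E and vector Cap IP. At an adjusted p under 0.05 in edgeR's quasi-likelihood test 28 rows passed, 0.225% of the 12460 tested. Of these, 10 were higher in eIF4E cells (0.0803%) and 18 were lower (0.144%). The smallest change among them was 1.40 on the log2 scale. At an unadjusted p under 0.05 there were 1146 rows. The log2 changes of all tested rows had a median of -0.01, with the middle of the distribution between -0.38 and 0.33, and 48.8% of them lay above 0. Among the genes that rose were the collagen gene COL27A1, the nuclear pore gene NUP153 and the zinc finger gene ZSCAN5A. Among those that fell were PALM3, the chromatin remodeller gene CHD5, the smooth muscle gene CNN1, the calcium channel gene ITPR1 and the long noncoding RNA LINC00662. In bulk RNA, fewer cells that express a gene and less of its RNA per cell cannot be told apart.

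**Figure D1:**
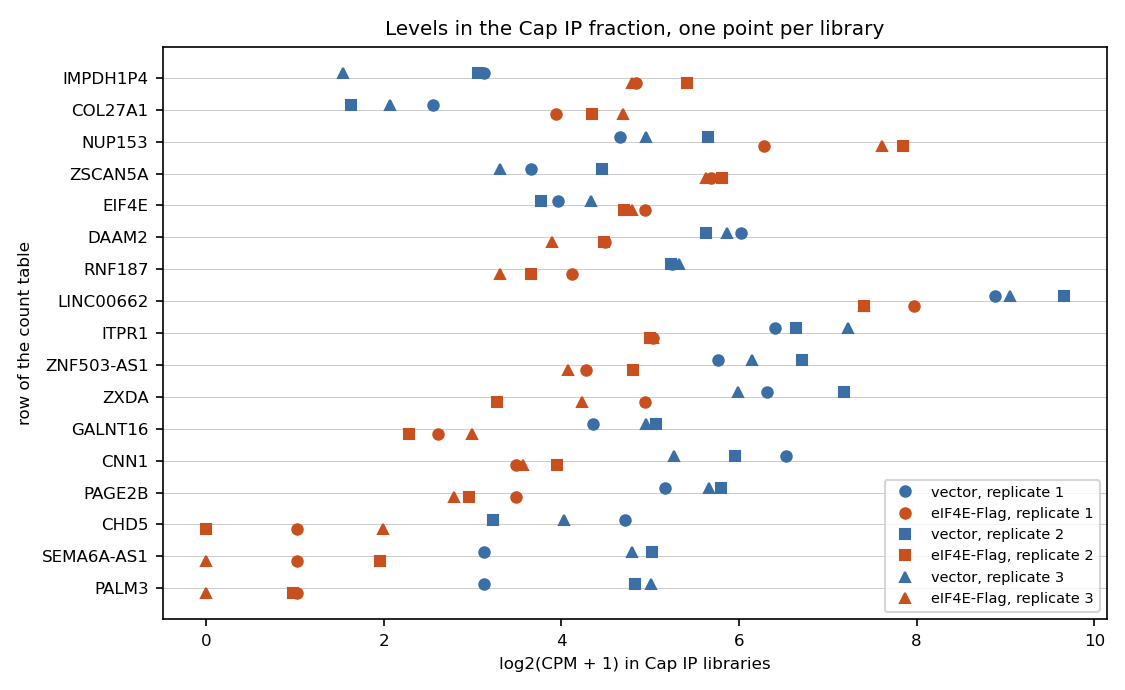
Level in each Cap IP library, as log2(CPM + 1) on the horizontal axis, of EIF4E and of the 16 named rows that passed, ordered by their log2 change; blue symbols are vector libraries and orange symbols eIF4E-Flag libraries, with 1 symbol shape per replicate. The 3 orange and 3 blue symbols do not overlap in any of these rows, which the rule for named rows required of all but EIF4E. PALM3, SEMA6A-AS1 and CHD5 reach 0 CPM in 1 eIF4E library each.

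The sequence around the annotated start, where the cap sits, is shown for 6 of the rows that passed. These are the ones with a RefSeq start and no exons opposite to another gene. The strand counted was not given, so the RNA behind these rows is not certain either. Each run has 10 bases before the start and 20 from it, in the direction of the gene, and the 5 capitals are the first bases of the RNA by the RefSeq annotation (GRCh38.p14).
COL27A1: ccaaatccttCCTTTtcctctcctccccca
CNN1: ggaagagtgtGCAGAcggaacttcagccgc
PALM3: gcccccccccACTCCaggcagccaagtcac
PAGE2B: tgctgcccgcCTTCTgtccacacacagctc
ZXDA: gcgcctcctcCTCGGctctggttccagccg
RNF187: cgtccccggcGTTGGcgtcttcgtcctgtt
These windows lie at chr9:114155527-114155556 (plus strand), chr19:11538841-11538870 (plus), chr19:14062057-14062086 (minus), chrX:55075020-55075049 (plus), chrX:57910439-57910468 (minus) and chr1:228487372-228487401 (plus), in the same order. COL27A1 and PAGE2B start with C and 4 further C or T letters, the form of the start of mRNAs for ribosomal proteins, and these 2 genes moved in opposite directions.

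Among the genes that rose, COL27A1 encodes a fibrillar collagen of cartilage and lies on chromosome 9 at 114155537 to 114312511 with no exons opposite. It had 4.86, 2.10 and 3.19 CPM in the vector libraries and 14.4, 19.3 and 24.8 CPM in the eIF4E libraries. The rule for named rows required groups without overlap, so for COL27A1 and the named rows below that separation is no support of its own. The vector values of COL27A1 stood near the level of 3 counts. The log2 change of COL27A1 was 2.50 ± 0.45 (SE, n = 3 each; edgeR adjusted p = 0.0232). NUP153 encodes a protein of the nuclear basket of the pore, through which mRNA leaves the nucleus. It had 24.3, 49.4 and 30.0 CPM in the vector libraries and 77.0, 230 and 194 CPM in the eIF4E libraries. The groups were apart, with eIF4E replicate 1 the lowest of the eIF4E libraries, and the log2 change was 2.28 ± 0.38 (edgeR adjusted p = 0.0232). NUP153 lies on chromosome 6 at 17615035 to 17706925, opposite to NUP153-AS1.

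ZSCAN5A, a zinc finger gene on chromosome 19 at 56219670 to 56368383, had 11.7, 21.0 and 8.94 CPM in the vector libraries and 50.3, 55.0 and 48.6 CPM in the eIF4E libraries. The eIF4E libraries were close to each other and all above the vector libraries, and the log2 change was 1.92 ± 0.36 (edgeR adjusted p = 0.0232). ZSCAN5A lies opposite to ZNF542P, which stood at 2.13 and did not pass (edgeR adjusted p = 0.344). The fourth row named by the rule, IMPDH1P4, is a pseudogene of the guanine nucleotide synthesis gene IMPDH1, and its reads may belong to the parent gene. It also has exons opposite to an unnamed gene. IMPDH1P4 had 7.78, 7.36 and 1.92 CPM in the vector libraries and 27.7, 41.5 and 26.8 CPM in the eIF4E libraries, a log2 change of 2.58 ± 0.46 (edgeR adjusted p = 0.0232). The remaining 6 rows that rose carry clone names, which were not matched to an annotated gene. They changed by 2.08 to 3.42, and AC006116.24 and AC006116.27, at 2.21 and 2.15, follow each other in the table.

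The 8 next rows by p in this direction did not pass, with edgeR adjusted p between 0.0513 and 0.0798. They were taken among rows without clone names whose groups did not overlap, so the lack of overlap is no support of its own. Of all tested rows, 6.16% were higher in eIF4E cells without overlap. NQO2, a quinone reductase gene opposite to NQO2-AS1, was the most abundant of them, at 61.3, 167 and 116 CPM in vector and 293, 585 and 418 CPM in eIF4E libraries (log2 difference 1.91 ± 0.40, edgeR adjusted p = 0.0513). NUDT6, a nudix hydrolase gene that lies opposite to the growth factor gene FGF2, had 43.8, 54.7 and 19.2 CPM in vector and 142, 136 and 88.2 CPM in eIF4E libraries (log2 difference 1.66 ± 0.36, edgeR adjusted p = 0.0540). FGF2 itself stood at -0.11, so the opposite strands of this locus gave different values. TGM2, which encodes a crosslinking enzyme and lies opposite to RPRD1B, had 3.89, 33.6 and 24.9 CPM in vector and 82.1, 136 and 168 CPM in eIF4E libraries (log2 difference 2.62 ± 0.59, edgeR adjusted p = 0.0647). The others were the retinoid isomerase gene RPE65 at 1.97, the acyltransferase gene MBOAT4, opposite to LEPROTL1, at 2.58, the peptidase gene TRHDE, opposite to TRHDE-AS1, at 2.67, the cytokine gene TNFSF8 at 2.66 and the pseudogene ST13P12. ST13P12 had 2 counts over the vector libraries and 84 over the eIF4E libraries, a log2 ratio of 5.62 with a 95% exact interval of 3.73 to 8.69 that covers counting error only.

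Among the genes that fell, PALM3 had the largest change of the named rows. PALM3 encodes a paralemmin, a protein tied to the plasma membrane, and lies on chromosome 19 at 14053363 to 14062076. It had 7.78, 27.3 and 31.3 CPM in the vector libraries and 1.03, 0.97 and 0 CPM in the eIF4E libraries. These stand for 83 counts in vector and 2 in eIF4E cells, a log2 ratio of -5.14 with a 95% exact interval of -8.21 to -3.24 for counting error. edgeR's fitted log2 change was -4.92 ± 0.79 (adjusted p = 0.0232). SEMA6A-AS1, a noncoding row opposite to the semaphorin gene SEMA6A, had 7.78, 31.5 and 26.8 CPM in vector and 1.03, 2.90 and 0 CPM in eIF4E libraries (log2 change -3.99 ± 0.81, edgeR adjusted p = 0.0377). SEMA6A stood at -0.21 (edgeR adjusted p = 0.928). CHD5, a chromatin remodeller gene on chromosome 1 at 6101787 to 6180321, had 25.3, 8.41 and 15.3 CPM in vector and 1.03, 0 and 2.97 CPM in eIF4E libraries. The CHD5 values of the eIF4E libraries were at or below the level of 3 counts, and the log2 change was -3.55 ± 0.69 (edgeR adjusted p = 0.0291).

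CNN1 encodes calponin, an actin-binding protein of contractile cells, and lies on chromosome 19 at 11538767 to 11550323. It had 91.4, 61.0 and 37.7 CPM in the vector libraries and 10.3, 14.5 and 10.9 CPM in the eIF4E libraries, so that the lowest vector library was still well above the highest eIF4E library. The log2 change of CNN1 was -2.39 ± 0.46 (edgeR adjusted p = 0.0245). ITPR1 encodes the receptor through which inositol trisphosphate releases calcium from the endoplasmic reticulum, and it lies on chromosome 3 at 4493345 to 4847506, opposite to an unnamed gene. ITPR1 had 83.6, 98.8 and 149 CPM in vector and 31.8, 30.9 and 31.7 CPM in eIF4E libraries, which were nearly equal to each other (log2 change -1.81 ± 0.32, edgeR adjusted p = 0.0232). LINC00662 was the most abundant of the named rows, with 471, 808 and 530 CPM in vector and 249, 169 and 169 CPM in eIF4E libraries (log2 change -1.62 ± 0.30, edgeR adjusted p = 0.0232). It is a long noncoding RNA on chromosome 19 at 27681072 to 27794005, opposite to LINC02987, and CTC-459F4.1, the row next to it in the table, fell by 3.48.

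PAGE2B, a cancer-testis antigen gene of the X chromosome, had 35.0, 54.7 and 49.8 CPM in the vector libraries and 10.3, 6.76 and 5.95 CPM in the eIF4E libraries (log2 change -2.59 ± 0.45, edgeR adjusted p = 0.0232). ZXDA, an X-linked zinc finger gene, had 78.8, 144 and 62.6 CPM in vector and 29.8, 8.69 and 17.8 CPM in eIF4E libraries (log2 change -2.33 ± 0.43, edgeR adjusted p = 0.0232). Both genes have closely related copies on the X chromosome, so which copy their reads belong to is uncertain. GALNT16, a glycosyltransferase gene opposite to an unnamed gene, fell by 2.35, and RP11-363J20.2 beside it fell by 2.52. ZNF503-AS1, a noncoding row that overlaps HMGA1P5 on the opposite strand, fell from 53.5, 104 and 69.6 CPM to 18.5, 27.0 and 15.9 CPM, by 1.88. RNF187, a ubiquitin ligase gene with no exons opposite, had nearly equal vector libraries, at 36.9, 36.8 and 38.9 CPM, and 16.4, 11.6 and 8.92 CPM in the eIF4E libraries. Its log2 change was -1.61 ± 0.34 and stood just inside the threshold (edgeR adjusted p = 0.0497). DAAM2, a formin gene of the Wnt pathway, fell by 1.58, and MOCS1, a molybdenum cofactor gene opposite to it, fell by 1.40. MOCS1 stood outside the rule for named rows and was chosen after its value was seen. The RNA behind the fall of DAAM2 and MOCS1 cannot be told apart from these counts.

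The number of rows that passed rested on single libraries. Without eIF4E replicate 2 it was 0, with 876 rows at an unadjusted p under 0.05, and without eIF4E replicate 3 it was 1. Without vector replicate 3 it was 4, without vector replicate 1 it was 20, and without eIF4E replicate 1 it was 23. Without vector replicate 2 it was 30. Of the 16 named rows that passed, 10 passed without vector replicate 1, 8 without vector replicate 2, 8 without eIF4E replicate 1, 2 without vector replicate 3 and 0 without eIF4E replicate 2 or without eIF4E replicate 3. Their directions stayed as reported in all of these fits. The log2 change of COL27A1 lay between 2.30 and 2.81 and that of NUP153 between 2.00 and 2.66. For CNN1 it lay between -2.64 and -2.01, for ITPR1 between -1.97 and -1.50 and for LINC00662 between -1.80 and -1.34. The largest edgeR adjusted p of these 5 genes was 0.192, for LINC00662, and 0.141 for the other 4. DESeq2 called 71 rows (0.57%), which included 27 of the 28.

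**Figure D2:**
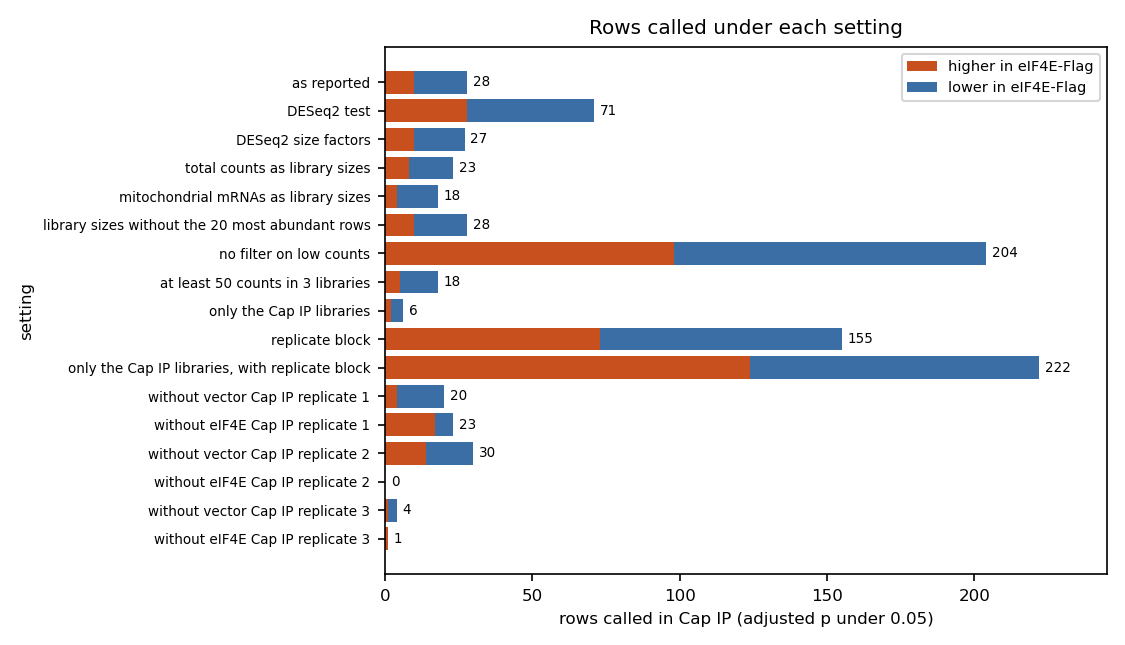
Number of rows that passed an adjusted p of 0.05 between eIF4E and vector Cap IP (horizontal axis, bars from 0) under each setting (vertical axis); orange is the part higher and blue the part lower in eIF4E-Flag cells. The count is 28 as reported, falls to 0 without eIF4E Cap IP replicate 2 and reaches 222 in the 6 Cap IP libraries with a replicate block.

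The titles of the Cap IP libraries share a tag between vector and eIF4E cells, and Cap IP libraries with the same tag deviated together. In input the deviations correlated by 0.18, 0.01 and -0.04 for replicates 1, 2 and 3, and what the tag stands for is not stated. With the tag as a replicate block 155 rows passed, 1.24% of those tested, of which 73 were higher (0.586%) and 82 lower (0.658%). They included all 28 of the fit without the block. With the block but without vector replicate 3 there were 46, of which 44 were among the 155, and without eIF4E replicate 3 there were 40. EIF4E did not pass with the block either (edgeR adjusted p = 0.344). The 8 rows given above as values that did not pass, all passed with the block. When vector replicate 3 was left out, NQO2, NUDT6, TGM2 and ST13P12 still passed with the block, and RPE65, MBOAT4, TRHDE and TNFSF8 did not (edgeR adjusted p = 0.200, 0.0954, 0.248 and 0.263). Whether these rows passed with the block and another library left out is not given here. TGM2 was higher within each tag, with a log2 change of 2.83 (edgeR adjusted p = 3.59e-05 with the block, and 0.0647 without it).

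The genes described in this paragraph were chosen after their values were seen, among those that passed with the block and not without it. HOTAIR, a long noncoding RNA of the HOXC cluster opposite to an unnamed gene, had 64.2, 18.9 and 40.2 CPM in vector and 10.3, 3.86 and 12.9 CPM in eIF4E libraries (log2 change -2.14, edgeR adjusted p = 0.00208 with the block and 0.0817 without it). HOTAIR still passed with the block when vector replicate 3 was left out (edgeR adjusted p = 0.0284). The gelatinase gene MMP2 had 43.8, 47.3 and 156 CPM in vector and 27.7, 26.1 and 23.8 CPM in eIF4E libraries, a log2 change of -1.44 (edgeR adjusted p = 0.0309 with the block). The membrane-bound matrix protease gene MMP14 changed by -1.17, the collagen gene COL9A2 by -1.61 and the chemokine gene CXCL14, opposite to SLC25A48, by -2.75. Vector replicate 3 was the highest library for MMP2, MMP14 and COL9A2. With the block and without vector replicate 3, MMP2 stood at -1.03 (edgeR adjusted p = 0.414) and MMP14 at -0.94 (edgeR adjusted p = 0.401). The calls of these 2 genes were thus not kept without that library, in a fit that also had fewer data. At the ZNF503 locus on chromosome 10, ZNF503 itself changed by -1.86 and ZNF503-AS2, opposite to it, by -1.39 with the block, beside ZNF503-AS1, which passed in both fits. LOXL1-AS1 changed by -1.83, and LOXL1, the lysyl oxidase-like gene on the opposite strand, by -1.05. In the other direction the glycolysis regulator gene PDK1, opposite to PDK1-AS1, changed by 2.01 and the keratin gene KRT15 by 2.41. The stress cytokine gene GDF15 changed by 2.19, the vitamin D hydroxylase gene CYP24A1 by 1.78 and the caspase regulator gene CFLAR, opposite to CFLAR-AS1, by 1.51. Of the genes named in this paragraph, HOTAIR, CXCL14, LOXL1-AS1 and PDK1 still passed with the block when vector replicate 3 was left out, with edgeR adjusted p of 0.0284, 0.0284, 0.00370 and 0.0177, and the others that had passed with the block only did not. Whether they passed with another library left out is not given here. The fewest rows, 40, passed with the block and without eIF4E replicate 3.

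Most of the rows that passed in Cap IP had moved the same way in input. In input 66 rows passed, 0.53% of those tested, and 15 of the 28 Cap IP rows were among them, which is 53.6% of the Cap IP rows and 22.7% of the input rows. All 18 rows that fell in Cap IP were below 0 in input, and 9 of the 10 that rose were above 0. PALM3 stood at -3.76 in input, PAGE2B at -2.68, ZXDA at -2.24 and LINC00662 at -2.20, and each of these 4 passed there. ITPR1, at -1.62, and COL27A1, at 1.57, also passed in input. CHD5, by contrast, fell by 3.55 in Cap IP and stood at -0.87 in input (edgeR adjusted p = 0.357), and RNF187 stood at -0.58 (edgeR adjusted p = 0.388). ZSCAN5A stood at 0.59 in input against 1.92 in Cap IP, and the clone rows RP11-463I20.1 and RP11-55J15.2 at -0.05 and 0.13 against 2.13 and 2.08. These clone rows were chosen after their values were seen. Whether the changes differed between the 2 fractions was tested as an interaction over all rows. No row passed (0 of 12460), the lowest adjusted p was 0.833, and 728 rows had an unadjusted p under 0.05. DESeq2 called 0 rows as well. For this difference, by the unadjusted p of edgeR's quasi-likelihood fit over all rows, 8 of the 28 rows lay under 0.05. Cap IP minus input, CHD5 differed by -2.68 ± 0.84, ZSCAN5A by 1.33 ± 0.51 and RNF187 by -1.03 ± 0.44, none of which passed (edgeR adjusted p = 0.833, 0.833 and 0.833). For NUDT6, which stood at -0.04 in input, the difference was 1.70 ± 0.51, and it did not pass (edgeR adjusted p = 0.833).

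**Figure D3:**
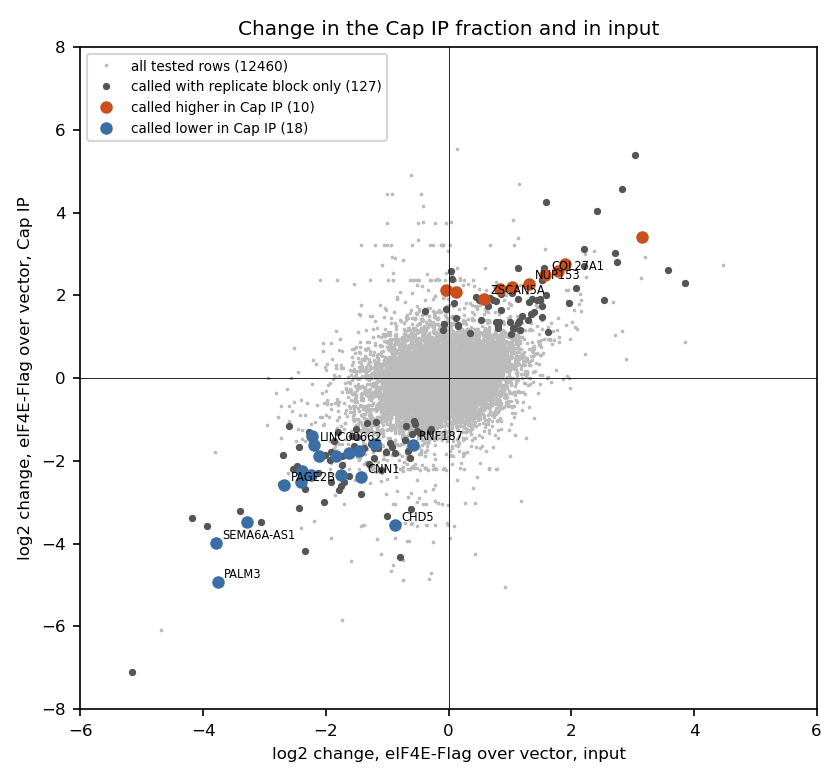
Log2 change between eIF4E-Flag and vector cells in input (horizontal axis) and in Cap IP (vertical axis) for all tested rows (grey; 1 row lies outside the axes); orange and blue points passed in Cap IP, dark points passed only with the replicate block, and 10 of the named rows are labelled. The 18 blue points lie left of 0 in input, while CHD5 stands at -3.55 in Cap IP and -0.87 in input and ZSCAN5A at 1.92 and 0.59.

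The genes of the pathway were described by 34 lists, of which 3 held a row that passed and 10 held one that passed with the block. None of the 5 tested enzymes of cap synthesis passed, and their median log2 change was -0.13, where all tested rows had -0.01. RNMT, the cap methyltransferase, opposite to FAM210A, had 4.86, 3.15 and 8.30 CPM in vector and 3.08, 19.3 and 17.8 CPM in eIF4E libraries. Its eIF4E replicates 2 and 3 lay above the vector libraries and replicate 1 did not, and the log2 difference of 1.23 ± 0.56 did not pass (edgeR adjusted p = 0.503). The trimethylguanosine synthase gene TGS1 stood at 0.33, PCIF1 at -0.21 and CMTR1 at -0.16. Among 14 tested genes of eIF4F and the 4E-binding proteins 0 passed with a median of 0.03, and EIF4E had the smallest p. EIF4E3, a cap-binding relative of eIF4E opposite to GPR27, stood at 0.69, the eIF4E kinase gene MKNK2 at -0.52 and the inhibitor gene EIF4EBP2 at -0.54.

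In the list of nuclear cap binding and mRNA export, NUP153 was the only one of 27 tested genes that passed, and the median was 0.10. SRRT, which joins the nuclear cap-binding complex to RNA processing, had 98.2, 105 and 96.4 CPM in vector and 158, 136 and 131 CPM in eIF4E libraries. These groups did not overlap, as in the 6.16% of all tested rows that were higher without overlap. SRRT did not pass (log2 difference 0.50 ± 0.28, edgeR adjusted p = 0.629). The export adaptor gene PHAX stood at 0.80 and the pore gene NUP98, opposite to PGAP2, at 0.74, and neither passed. Among 14 decapping and 5′ decay genes 0 passed, with a median of 0.04 and the decapping activator gene PATL1, opposite to an unnamed gene, at 0.92. Of 27 tested mRNAs whose export or translation is reported to depend on eIF4E, 0 passed, and the median was -0.02. The kinase gene PIM1 had the smallest p of them, with 20.4, 12.6 and 24.9 CPM in vector and 12.3, 4.83 and 3.97 CPM in eIF4E libraries (log2 difference -1.48 ± 0.44, edgeR adjusted p = 0.249). The survival gene BCL2L1, opposite to ABALON, stood at 0.95 (edgeR adjusted p = 0.368), and the cyclin gene CCNA2, opposite to EXOSC9, at 0.70. With library sizes taken from the mitochondrial mRNAs the median of all rows moved to -0.63, and the medians of the export, decapping and eIF4F lists moved with it to -0.39, -0.46 and -0.73.

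Some lists of abundant mRNAs lay mostly to one side without any member passing. Of 78 tested cytosolic ribosomal protein genes 69 were below 0, with a median of -0.26, where the same genes had 0.20 in input. In 22 of the 78 (28.2%) the 3 eIF4E libraries lay below the 3 vector libraries, which held for 7.39% of all tested rows. These genes are read in the same 6 libraries and are not replicates. Summed over the 85 rows of the list, the levels overlapped, at 28563 to 32507 CPM in vector and 23512 to 28759 CPM in eIF4E libraries. RPL35A, which encodes a protein of the large subunit, had 171, 143 and 147 CPM in vector and 132, 81.1 and 66.4 CPM in eIF4E libraries, groups that did not overlap (log2 difference -0.72 ± 0.31, edgeR adjusted p = 0.483). RPL23A, opposite to TLCD1, stood at -0.66, and neither passed. Over all settings the median of this list lay between -0.90 and -0.16. The 65 genes of the nuclear-encoded respiratory chain had a median of -0.18, with 48 below 0 and 0 that passed, and the median was -0.09 without eIF4E replicate 3. Of 34 replication-dependent histone genes 30 were below 0, with a median of -0.61 and 0 that passed. Without vector replicate 1 this median was -0.31. HIST1H2BN, a gene for histone H2B, had 835, 913 and 271 CPM in vector and 408, 353 and 158 CPM in eIF4E libraries, groups that overlapped (log2 difference -1.13 ± 0.45, edgeR adjusted p = 0.443). HIST1H4I went the other way, with 2433, 3352 and 1518 CPM in vector and 10687, 4533 and 3381 CPM in eIF4E libraries, and did not pass (log2 difference 1.35 ± 0.40, edgeR adjusted p = 0.246).

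Genes of contraction and of the mesenchymal state also had medians below 0. Among 22 cytoskeleton and contraction genes CNN1 fell, 18 were below 0 and the median was -0.25, which was -0.09 without vector replicate 3 and -0.15 without eIF4E replicate 2. TAGLN, which encodes the smooth muscle protein transgelin and lies opposite to PCSK7, had 21.4, 32.6 and 23.0 CPM in vector and 9.24, 10.6 and 8.92 CPM in eIF4E libraries, and did not pass (log2 difference -1.40 ± 0.38, edgeR adjusted p = 0.170). The tropomyosin gene TPM1, opposite to TPM1-AS, stood at -0.84 and the myosin light chain gene MYL9 at -0.74. Neither passed, and each had eIF4E libraries below the vector libraries without overlap, as 7.39% of all tested rows did. Of 36 extracellular matrix genes COL27A1 rose, while COL1A1, the main collagen of bone, and LOXL1 were lower with the block. COL1A1, opposite to an unnamed gene, had 254, 162 and 321 CPM in vector and 139, 84.0 and 135 CPM in eIF4E libraries (log2 change -1.03, edgeR adjusted p = 0.0451 with the block and 0.243 without it). The median of the matrix list was -0.28, and without vector replicate 3 it was 0.03, so its side of 0 rested on that library, while it was -0.54 without vector replicate 2 and -0.56 without eIF4E replicate 3. Without the same library COL1A1 stood at -0.85 with the block and did not pass (edgeR adjusted p = 0.364). All 8 tested mesenchymal markers were below 0, with a median of -0.53 that was -0.23 without vector replicate 3. Among 9 tested epithelial markers KRT15 passed with the block, from 0.97, 4.20 and 3.83 CPM to 9.24, 19.3 and 17.8 CPM (log2 change 2.41, edgeR adjusted p = 0.0206), and their median was 0.08. The summed epithelial markers were 3518 to 4866 CPM in vector and 5121 to 6854 CPM in eIF4E libraries, most of it KRT8, which lies opposite to KRT18 and stood at 0.59 (edgeR adjusted p = 0.595). Their part in the other changes was not tested.

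Of 23 immediate early genes 18 were below 0, with a median of -0.35, which was -0.04 without vector replicate 3, -0.21 without eIF4E replicate 1 and -0.54 without vector replicate 2. FOS, a subunit of the AP-1 transcription factor, had 30.1, 8.41 and 76.6 CPM in vector and 11.3, 3.86 and 12.9 CPM in eIF4E libraries. It was lower within each tag although the groups overlapped, with a log2 change of -1.89 (edgeR adjusted p = 0.0242 with the block and 0.453 without it). IER2, opposite to an unnamed gene, changed by -1.10 (edgeR adjusted p = 0.0395 with the block). With the block and without vector replicate 3 neither FOS nor IER2 passed (edgeR adjusted p = 0.333 and 0.517). Of 25 p53 target genes 17 were above 0 with a median of 0.22, which was -0.42 with library sizes from mitochondrial mRNAs, above the -0.63 of all rows. GDF15 was the only one of them that passed with the block, from 1.94, 1.05 and 6.38 CPM to 6.16, 21.2 and 20.8 CPM. Of 172 tested zinc finger genes of the ZNF family, many of them repressors of transposable elements, 0 passed, with a median of 0.06. With the block ZNF114 (2.39, opposite to ZNF114-AS1) and ZNF45 (1.70) were higher and ZNF503 was lower, 3 of 172 where 1.24% of all tested rows passed with the block. None of the 3 passed with the block when vector replicate 3 was left out (edgeR adjusted p = 0.0914, 0.0838 and 0.172).

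**Figure D4:**
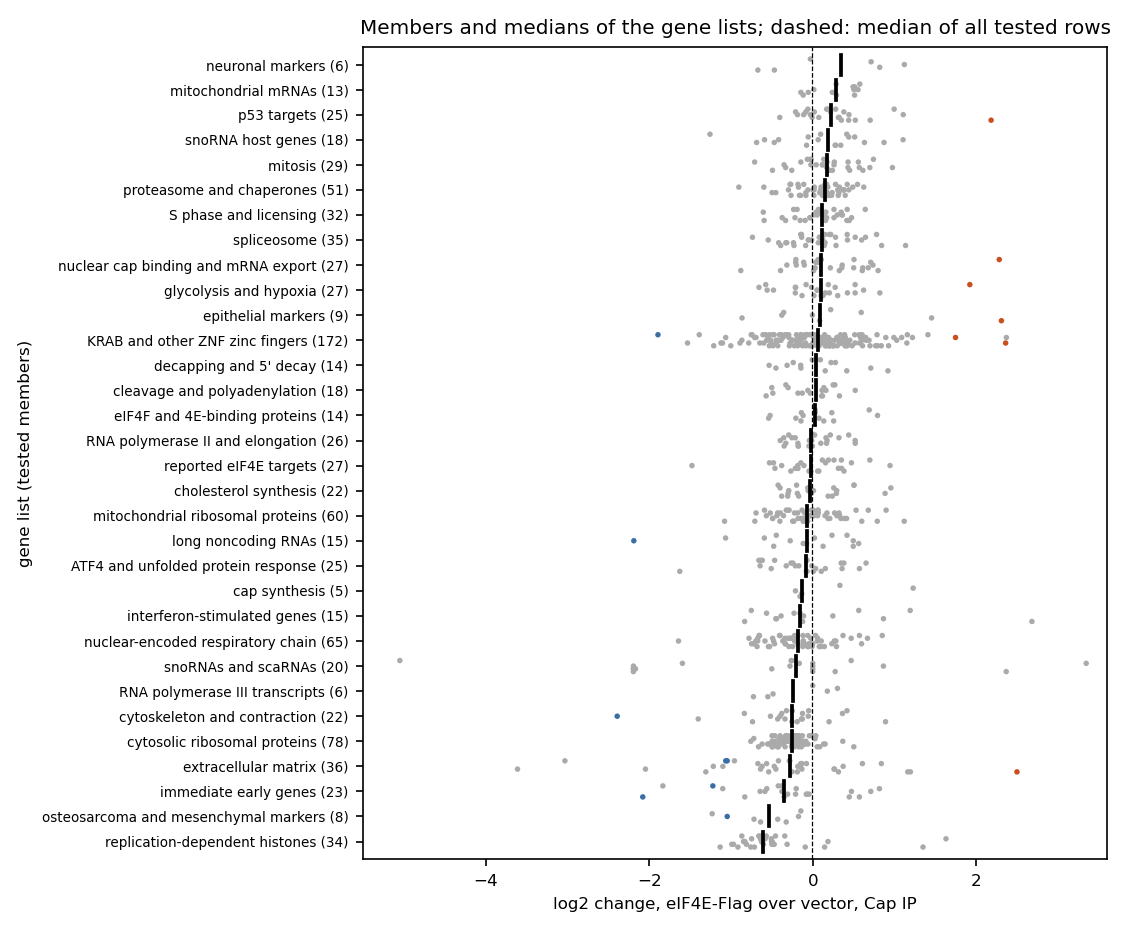
Log2 change between eIF4E-Flag and vector Cap IP (horizontal axis) of each tested member (points) of the 32 lists with 5 or more tested members, with the median of each list as a black bar and that of all tested rows as a dashed line; orange and blue points passed with the replicate block and grey points did not. Medians run from -0.61 for the histone genes to 0.34 for the neuronal markers; the first was -0.31 without vector replicate 1 and the second 0.22 without eIF4E replicate 2.

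Among RNAs that carry no m7G cap, transcripts of RNA polymerase III were scarce in both groups of Cap IP libraries. Mitochondrial mRNAs held a smaller share of counts than in input but were not scarce. Transcripts of RNA polymerase III, which start with a triphosphate or another end, summed to 76.7 to 190 CPM in vector and 82.3 to 94.4 CPM in eIF4E libraries, against 7541 to 18800.4 CPM in the 6 input libraries. RN7SL1, which forms the scaffold of the signal recognition particle, had 2.92, 6.31 and 1.28 CPM in vector and 1.03, 4.83 and 5.95 CPM in eIF4E libraries, values at about the level of 3 counts. The 13 mitochondrial mRNAs, which are made without a cap, summed to 5563 to 27743 CPM in vector and 12325 to 33449 CPM in eIF4E libraries. In input they summed to 19225 to 35945 CPM, so these sums overlapped after TMM scaling. As a share of all counts, without that scaling, they held 0.367% to 2.43% in the Cap IP libraries and 2.79% to 4.35% in input, which did not overlap. Their median log2 change was 0.29, and 0 passed. This median turned to -0.15 without eIF4E replicate 1 and without vector replicate 2, and was 0.56, 0.65 and 0.75 without vector replicate 1, eIF4E replicate 2 and vector replicate 3. MT-CO3, a subunit of cytochrome oxidase, had 323, 83.0 and 391 CPM in vector and 611, 183 and 400 CPM in eIF4E libraries, groups that overlapped. Of 3 tested RNAs with a trimethylguanosine cap 0 passed, with SNORD3A, the U3 RNA, at -0.28. Of 15 tested long noncoding RNAs 0 passed without the block. MALAT1, a nuclear RNA opposite to TALAM1, had 292, 229 and 454 CPM in vector and 634, 271 and 472 CPM in eIF4E libraries, and OIP5-AS1, opposite to OIP5, stood at 0.56, neither of which passed (edgeR adjusted p = 0.783 and 0.718). SNHG14 and ZFAS1, host transcripts of snoRNAs opposite to UBE3A and ZNFX1, stood at 0.87 and 1.10 and did not pass. Their groups did not overlap, as in the 6.16% of all tested rows that were higher without overlap.

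By annotated class, protein-coding rows held 42.8% ± 2.50 (SD, n = 3) of the Cap IP counts in vector and 42.1% ± 0.46 in eIF4E cells, and long noncoding RNAs 8.95% ± 1.66 and 8.60% ± 0.38. The groups overlapped in both classes (exact permutation test, two-sided p = 0.7 and 0.8). Pseudogenes held 0.619%, 0.676% and 0.640% in the vector libraries and 0.741%, 0.718% and 0.721% in the eIF4E libraries. All 3 eIF4E libraries were higher, and the exact two-sided p of 0.1 is the smallest that 3 against 3 libraries allow. Of 236 tested pseudogenes IMPDH1P4 rose, and with the block 5 were higher and 0 lower, where 0.586% and 0.658% of all tested rows were. Of these 5, RPL12P14, HOMER2P2 and HCG4 (opposite to HLA-V) did not pass with the block when vector replicate 3 was left out (edgeR adjusted p = 0.172, 0.302 and 0.0796), and these 3 were chosen after their values were seen. Of 9220 tested protein-coding rows 3 rose and 10 fell, and of 576 long noncoding RNAs 0 rose and 3 fell, namely LINC00662, SEMA6A-AS1 and ZNF503-AS1. Of the 28 rows that passed, 7 had no exons opposite to another gene, 10 had such exons and 11 were not matched to the annotation. Of all tested rows these kinds made up 39.6%, 41.6% and 18.8%, so rows not matched held a larger part of the rows that passed.

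A start of C followed by 4 letters C or T was sought as letters at the RefSeq start of the tested rows, on the strand of the gene only. Of 5575 rows with a RefSeq start, 335 (6.01%) had it. Their median log2 change was -0.12, against -0.03 for rows without it. Among rows with a RefSeq start, 34 of the 82 lower with the block and 24 of the 73 higher with it, the start was found in 2 (5.88%) and 1 (4.17%), shares near that of all rows. The first letter was A in 2543 rows, G in 2291, C in 691 and T in 50. Among the 10 rows that fell and have a start, it was G in 6, C in 3 and A in 1.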

How the data were processed

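RNA of U2OS cells was sequenced in 4 groups of 3 libraries, input and Cap IP of eIF4E-Flag and of vector cells. The authors deposited raw counts, 1 row per gene name. The tools and build listed in the submitters' processing notes are STAR 2.5.1b, featureCounts 1.4.5-p1, DESeq2 and GRCh38.p5. Per the labels' protocols, libraries came from a stranded kit with depletion of ribosomal RNA and were read in 75 cycles from a single end. The strand counted and the annotation used were not given in these sources.

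The tests used edgeR 4.0.16 (with limma 3.58.1, under R 4.3.3). Rows were kept by filterByExpr, scaled with TMM and fitted with the quasi-likelihood model over all 12 libraries with a mean per group, and the contrast was eIF4E against vector in Cap IP. A row passed at a Benjamini-Hochberg adjusted p under 0.05 over all 12460 rows. Errors of log2 changes are standard errors of the fit. The interaction with input used the same fit. A prior count of 2 entered log2 CPM for the principal components. In simulated counts of 12460 rows, 200 were given a change, 100 at each size. The fit called 9% of the 2-fold and 59% of the 4-fold changes, with 3 false calls. A row or list in which 0 passed may therefore still have changed, above all by 2-fold or less. A chi-square per degree of freedom of at least 5.10 between replicates showed no copied libraries.

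The members, the lists and the rules were chosen with earlier results of these data known. Named rows were EIF4E, then up to 12 per direction with the largest change among those that passed, with a mean log2 CPM no lower than 2, no clone name, groups without overlap and 1 row per family of copies. Where fewer passed, the next rows by p filled up to 12. From a list, the 4 members of smallest p at most were named, besides those called.

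Libraries of vector and eIF4E cells share a tag in their titles (V2F, VI2F and IV2F for replicates 1, 2 and 3). Residuals of libraries with the same tag correlated by 0.20, 0.16 and 0.30 in Cap IP, and by 0.18, 0.01 and -0.04 in input. The full titles of replicate 1 differ between vector and eIF4E cells before the tag, and the labels do not say what the tag stands for. Whether the tag marks a true pair is therefore not certain. The block, fitted over input and Cap IP libraries together, is given beside results it changes.

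Positions and opposite exons came from GENCODE release 44. It matched 33465 rows by symbol (57.0% of counts) and 1595 by an older symbol (4.20%), and 23624 (38.8%) were not matched. Starts came from RefSeq (GRCh38.p14). Tables were made with pandas 2.3.3, SciPy 1.17.1 and NumPy 2.4.6 under Python 3.11.15, and figures with matplotlib 3.10.9. There were 16 alternatives: DESeq2 1.42.0, other library sizes, filters and sets of libraries, the block, and each Cap IP library left out. Another 6 with the block and a library left out were added after the data were seen.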

Additional observations from a re-analysis of the deposited data

How the results depend on the processing

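The 28 rows that passed became 71 with DESeq2's test, 204 without a filter on low counts, 18 with at least 50 counts in 3 libraries, 6 with only the Cap IP libraries in the fit, 155 with the replicate block and 222 with only the Cap IP libraries and the block. With library sizes from mitochondrial mRNAs there were 18, 4 higher and 14 lower, and 5 of the 28 were among them. The other scalings gave 23 to 28. Leaving out 1 library gave 0 to 30, lowest without eIF4E replicate 2 and highest without vector replicate 2. Without vector replicate 1 the split was 4 higher and 16 lower, and without eIF4E replicate 1 it was 17 and 6. With the block, leaving out 1 library gave 40 to 131, namely 131 without vector replicate 1, 117 without eIF4E replicate 1, 99 without vector replicate 2, 74 without eIF4E replicate 2, 46 without vector replicate 3 and 40 without eIF4E replicate 3. Where fits had fewer libraries or rows, these counts rest on fewer data; the cause was otherwise not tested. Of the 16 named rows that passed, 5 passed with mitochondrial library sizes, 3 with only the Cap IP libraries, 13 with total counts, 15 with DESeq2 size factors and 16 with the replicate block.

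No named row changed direction under any of these settings. EIF4E did not pass in any setting that tested it, with log2 differences of 0.33 to 1.09; the filter at 50 counts left it out. None of the named rows passed for the difference from input in any setting, where 3 other rows passed without a filter and 3 with the block and without vector replicate 2. Libraries of 1206321 to 1786940 counts limit single genes: 3 counts stand for 1.92 to 3.15 CPM, so rows such as PALM3, CHD5 and COL27A1 have 1 group at or near this level.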
